A study of Mus musculus with 6 samples.

Results

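The Zfp genes, the mouse genes named Zfp and a number, encode zinc finger proteins, and 256 of them were followed in intestinal organoids treated with DM-aKG. They were chosen by their symbol and by a mean of at least 1 RPKM (reads per kilobase of transcript, scaled to the library's reads) over all 6 libraries, which kept 256 of 391 Zfp symbols in a table of 24956 genes. The symbols Zfp36, Zfp36l1 and Zfp36l2, which encode RNA-binding proteins with fingers of another kind, were left out. The mean of both groups together made the choice, and it does not use the difference between them. A Zfp symbol names genes by a shared protein motif, so the set has no single pathway.

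DM-aKG, a methyl ester form of α-ketoglutarate that enters cells, was given to the cultures behind 3 libraries, and 3 further libraries served as controls. All 6 were organoids from mouse intestine with the Apc Min genotype, grown in organoid medium. Apc Min is a nonsense mutation of Apc, a gene whose protein restrains Wnt signalling, and mice that carry it develop intestinal tumours. By its title the series asks how α-ketoglutarate bears on Wnt signalling and on differentiation. The labels read for this report give no dose, duration, vehicle or age of the mice, and do not state whether the other Apc allele was intact. The design calls the replicates biological but does not name their cultures of origin, so the p-values measure only the spread between these libraries, which may be technical.

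A zinc finger of the C2H2 kind is a short fold held together by a zinc ion between a pair of cysteines and a pair of histidines, and arrays of such fingers read DNA base by base. In many of these proteins a KRAB box, a short stretch near the start of the protein, recruits the corepressor Trim28 (also called KAP1). Trim28 brings Setdb1, which methylates lysine 9 of histone H3, and heterochromatin proteins, and this machinery silences retroelements and some imprinted genes. Members without a KRAB box do many other things: some are transcription factors or corepressors, others bind RNA, tag proteins with ubiquitin or assist the mitotic spindle.

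Most Zfp genes stood lower in the DM-aKG organoids, by small steps. Of the 256 genes, 118 (46.1%) were lower and 16 (6.25%) higher in DM-aKG (limma on log2(RPKM + 0.5), Benjamini-Hochberg adjusted p under 0.05 over all tested genes), and 122 did not pass. Over all 10852 genes tested, 24.7% were called lower and 30.9% higher, together 55.6%. With each library centred on its median gene, 14 Zfp genes were higher and 154 lower, while the balance over all genes tested turned to 2790 higher and 3340 lower. The median log2 fold change of the Zfp genes was -0.19, with quartiles at -0.40 and -0.03, and that of all tested genes was 0.02. A fold change below 0 was found in 202 Zfp genes (78.9%) and in 47.3% of the tested genes. All 3 DM-aKG libraries lay below all 3 controls in 144 Zfp genes and above them in 21. Among tested genes such separation covered 28.9% below and 35.3% above. A fall of at least 1.5-fold was called in 16 Zfp genes and a rise of that size in 2, with 4.91% and 7.04% of all tested genes past the same marks.

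**Figure D1:**
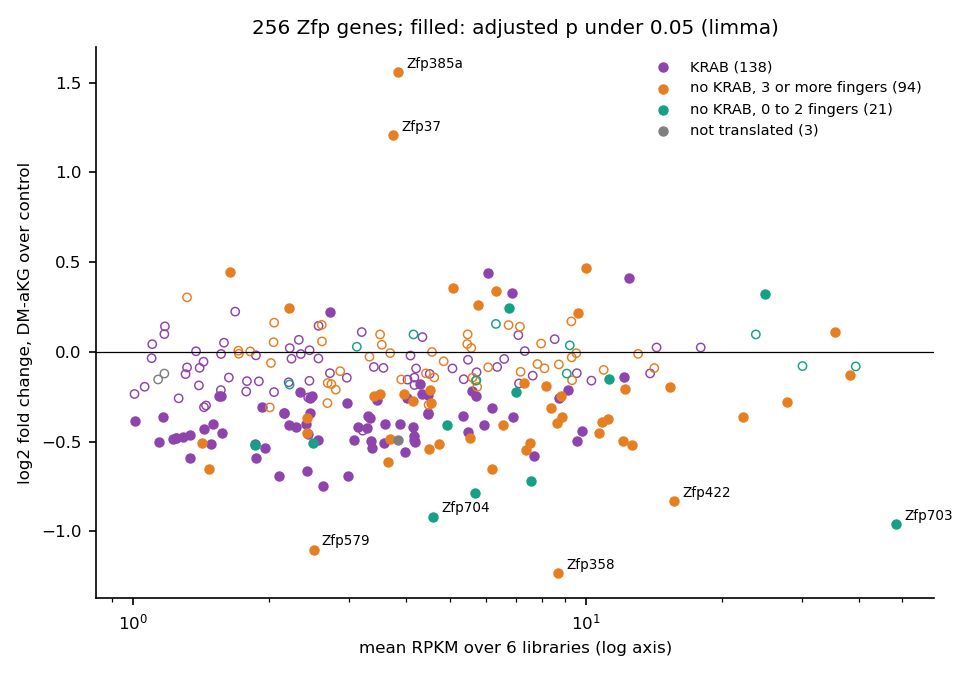
Each point is a Zfp gene, with its mean RPKM over 6 libraries on a log axis and its log2 fold change, DM-aKG over control, on the vertical axis. Colours give the protein class, filled points had an adjusted p under 0.05 in limma, and 202 of 256 points lie below 0.

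The libraries showed the same shift when the Zfp genes were added up. Their summed level was 1386, 1322 and 1326 RPKM in DM-aKG replicates 1, 2 and 3, against 1561, 1548 and 1544 RPKM in control replicates 1, 2 and 3. The groups did not overlap, and the ratio of their means, 1345 ± 35.5 in DM-aKG and 1551 ± 9.08 in controls (SD, n = 3 each), was 0.867. A median Zfp gene stood at 3.57, 3.45 and 3.46 RPKM in the DM-aKG libraries, against 4.26, 4.33 and 4.23 RPKM in the controls. The Zfp genes held 0.372% of the table's RPKM sum in DM-aKG and 0.418% in controls. DM-aKG replicate 1 lay nearest to the controls: in 85 of the 118 lower genes it was the highest of the DM-aKG libraries, and among the 16 higher genes it was the lowest in 10. Without it, 141 Zfp genes were called lower and 19 higher. The shares over all tested genes rose as well, from 24.7% to 29.4% lower and from 30.9% to 33.9% higher. In bulk RNA, fewer cells of a type that express a gene and less RNA of that gene per cell cannot be told apart.

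**Figure D2:**
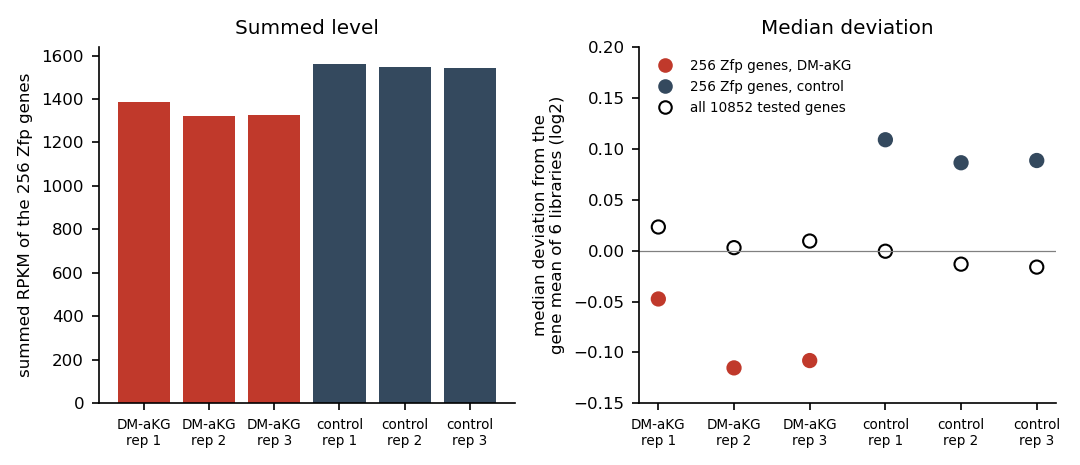
The left panel gives the summed RPKM of the 256 Zfp genes in each library, and the right panel the median log2 deviation from each gene's mean over 6 libraries, for the Zfp genes (filled) and for all 10852 tested genes (open). The Zfp genes lie between -0.12 and -0.05 in DM-aKG and between 0.09 and 0.11 in controls.

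Depth, estimated from the step that 1 read makes in very short genes, was 32.7 to 34.3 × 10⁶ reads per library. It was set on 34 to 55 values at 1 read per library. Of 33 to 39 other values per library, up to 5 reads, 90.9% to 94.4% were whole reads within 0.05 reads. At 1 RPKM this depth gives a counting error of 17.1% to 17.5% for a transcript of 1 kb and of 9.9% to 10.1% for 3 kb. The many members near that level were thus measured coarsely, more so where the transcript is short. All 8 epithelial markers were present, and limma called 5 higher, 2 lower and 1 neither. They summed to 3667 to 4575 RPKM in DM-aKG and 2849 to 2896 RPKM in controls, a difference carried by the keratin genes Krt8, Krt18 and Krt19, while Epcam averaged 334.4 RPKM in DM-aKG and 421.0 in controls and Cdx2 averaged 40.6 RPKM in DM-aKG and 70.3 in controls. Of 9 fibroblast and muscle markers, none reached a mean of 1 RPKM, 3 were at 0 throughout, and their sums were 0.07 to 0.12 in DM-aKG and 0.04 to 0.07 RPKM in controls. Of 7 immune markers only Cd68 passed 1 RPKM, Ptprc was at most 0.01 RPKM, and the sums were 2.21 to 3.38 in DM-aKG and 1.32 to 1.58 RPKM in controls. Of 7 endothelial and glial markers only Tubb3 passed, Cdh5 and Kdr were at 0, and the sums were 2.15 to 2.48 in DM-aKG and 1.97 to 2.20 RPKM in controls. The part of the epithelial and immune sums in the Zfp values was not tested.

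Among the 16 risen Zfp genes, Zfp385a and Zfp37 passed 1.5-fold. Zfp385a (also called Hzf), a target of p53 that encodes an RNA-binding protein, lies at chr15:103313895-103340086. It stood at 5.47, 6.08 and 6.40 RPKM in DM-aKG replicates 1, 2 and 3, against 1.74, 1.76 and 1.59 RPKM in the controls. Every DM-aKG value was above every control, and the log2 fold change was 1.56 ± 0.08 (SE; limma, adjusted p = 6.57e-06). Zfp37, on chromosome 4, had 4.40, 6.23 and 5.71 RPKM in DM-aKG, against 2.40, 1.88 and 1.90 RPKM in controls (log2 fold change 1.21 ± 0.13; limma, adjusted p = 2.40e-04). Its DM-aKG replicate 1 was the lowest of the treated libraries and still clear of the controls.

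At the other end stood Zfp358 and Zfp579, both with fingers and no KRAB box. Zfp358, on chromosome 8, had 6.13, 4.11 and 4.80 RPKM in DM-aKG, against 11.19, 13.72 and 12.18 RPKM in controls. The groups were far apart, at 5.01 ± 1.03 in DM-aKG and 12.4 ± 1.27 RPKM in controls (SD, n = 3 each), and the log2 fold change was -1.23 ± 0.13 (limma, adjusted p = 2.25e-04). Zfp579, on chromosome 7, had 1.34, 1.30 and 1.59 RPKM in DM-aKG, against 3.39, 3.63 and 3.76 RPKM in controls, a log2 fold change of -1.10 ± 0.08 (limma, adjusted p = 5.36e-05). The start regions of these 4 genes, which moved furthest in either direction, are shown from RefSeq (GRCm38.p6), 250 bases before to 50 after the listed start, 5′ to 3′ on the gene's strand. Capitals mark the motifs named beneath. Zfp385a spans chr15:103340037-103340336 (minus strand), Zfp37 chr4:62208497-62208796 (minus strand), Zfp358 chr8:3492888-3493187 (plus strand) and Zfp579 chr7:4996052-4996351 (minus strand).
Zfp385a: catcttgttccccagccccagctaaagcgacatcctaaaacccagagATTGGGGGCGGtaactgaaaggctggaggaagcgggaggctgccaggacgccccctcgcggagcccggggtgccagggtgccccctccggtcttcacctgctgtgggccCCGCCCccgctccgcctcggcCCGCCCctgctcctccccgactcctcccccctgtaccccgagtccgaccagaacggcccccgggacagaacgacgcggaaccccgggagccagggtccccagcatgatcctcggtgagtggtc
Zfp37: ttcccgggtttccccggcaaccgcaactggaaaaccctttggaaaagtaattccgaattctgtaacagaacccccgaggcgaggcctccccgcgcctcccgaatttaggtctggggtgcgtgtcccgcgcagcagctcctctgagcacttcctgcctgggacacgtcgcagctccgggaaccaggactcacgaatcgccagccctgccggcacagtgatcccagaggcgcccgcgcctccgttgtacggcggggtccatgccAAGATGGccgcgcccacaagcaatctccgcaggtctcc
Zfp358: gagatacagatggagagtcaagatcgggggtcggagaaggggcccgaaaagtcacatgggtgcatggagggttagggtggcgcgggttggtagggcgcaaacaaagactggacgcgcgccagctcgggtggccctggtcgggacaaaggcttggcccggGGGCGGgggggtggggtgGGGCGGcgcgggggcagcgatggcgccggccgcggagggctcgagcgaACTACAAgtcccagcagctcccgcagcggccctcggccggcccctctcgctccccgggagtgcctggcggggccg
Zfp579: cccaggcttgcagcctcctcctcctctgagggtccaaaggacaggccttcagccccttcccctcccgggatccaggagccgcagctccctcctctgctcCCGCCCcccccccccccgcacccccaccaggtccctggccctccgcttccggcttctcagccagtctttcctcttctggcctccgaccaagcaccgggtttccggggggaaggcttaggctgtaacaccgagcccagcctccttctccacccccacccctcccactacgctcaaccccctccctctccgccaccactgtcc
The window of Zfp385a holds 3 GC boxes (GGGCGG) and 1 CCAAT box (CCAAT), that of Zfp37 a YY1 core (AAGATGG), that of Zfp358 2 GC boxes and a ZNF143 core (ACTACAA), and that of Zfp579 a GC box. For Zfp385a and Zfp37 RefSeq lists 2 starts and the window is that of the start listed before the other.

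The same windows were available for 217 of the 256 genes, and motifs were searched on both strands. A GC box was present in 45.6% of Zfp windows and in 35.9% of all 27025 windows, with 66.4% among tested genes. CCAAT was present in 50.2% of Zfp windows, 37.9% of all windows and 39.6% of those of tested genes. The ZNF143 core was found in 6.45% of Zfp windows, 3.45% of all windows and 4.61% of those of tested genes. The YY1 core was found in 8.29%, 6.48% and 7.75% of the same sets, and a TATA box (TATAAA) in 6.45%, 14.2% and 7.03%. Between the 14 risen and the 101 fallen Zfp genes with a window, the GC box stood at 50% and 41.6%, CCAAT at 57.1% and 45.5%, and the core of the antioxidant response element (TGACNNNGC) at 0% and 12.9%. That core was found in 15.1% of windows of tested genes and 19.6% of those of Zfp genes not called. The E box (CACGTG) stood at 0% and 9.9% of risen and fallen genes. With 14 risen windows, a share of 0% rests on few genes. Zfp windows held a median of 14 CG dinucleotides, those of the KRAB class 10, and those of all tested genes 21. These are counts of letters in a window, and no test was made of them.

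Zfp703, the member with the highest control level, fell to 36.07, 29.66 and 32.63 RPKM in the DM-aKG libraries, against 60.37, 66.22 and 65.88 RPKM in the controls. It encodes a corepressor of the NET family with few or no standard fingers, and its human counterpart is amplified in luminal breast cancers. The level averaged 32.8 ± 3.21 RPKM in DM-aKG and 64.2 ± 3.28 RPKM in controls (SD, n = 3 each), a log2 fold change of -0.96 ± 0.07 (limma, adjusted p = 5.40e-05). Zfp503, the other NET family gene, had 5.27, 5.29 and 6.26 RPKM in DM-aKG, against 9.68, 8.95 and 9.93 RPKM in controls (log2 fold change -0.72 ± 0.08; limma, adjusted p = 2.15e-04). Zfp704 and Zfp395 encode factors related to each other. Zfp704 had 3.56, 2.72 and 2.82 RPKM in DM-aKG, against 6.13, 6.16 and 6.13 RPKM in controls (log2 fold change -0.92 ± 0.09; limma, adjusted p = 1.62e-04). For Zfp395 the values were 4.55, 3.58 and 3.88 RPKM in DM-aKG, against 5.83, 9.38 and 6.94 RPKM in controls (log2 fold change -0.79 ± 0.16; limma, adjusted p = 0.00388). Control replicate 2 was the highest of its group for Zfp395, and with no filter on low genes its adjusted p was 0.0536. These 4 belong to the 21 members with at most 2 standard fingers and no KRAB box, of which 2 rose, 9 fell and 10 did not pass, with a median log2 fold change of -0.15.

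The list of transcription factors and cofactors held 22 Zfp genes, and 18 of them were tested. Of these 3 were higher (16.7%), 7 lower (38.9%) and 8 did not pass, beside 30.9% higher and 24.7% lower over all tested genes. Zfp335, whose protein is found in complexes that methylate lysine 4 of histone H3, was higher, at 10.84, 11.76 and 12.41 RPKM in DM-aKG, against 8.63, 7.89 and 8.34 RPKM in controls (log2 fold change 0.47 ± 0.06; limma, adjusted p = 5.77e-04). Zfp143, whose human counterpart is an activator bound at many promoters, had 6.19, 7.29 and 7.90 RPKM in DM-aKG, against 5.32, 5.76 and 5.43 RPKM in controls (log2 fold change 0.34 ± 0.09; limma, adjusted p = 0.0112). Zfp143 lost its call with no filter on low genes, at an adjusted p of 0.0753. Zfp217, counterpart of a human oncogene, was the remaining riser at 6.46, 6.43 and 6.14 RPKM in DM-aKG, against 4.85, 5.69 and 5.11 RPKM in controls (log2 fold change 0.26 ± 0.07; limma, adjusted p = 0.0110). Besides the NET family genes and Zfp704, the lower members of the list were Zfp263, Zfp292, Zfp362 and Zfp652. Outside the lists, Zfp341, whose human counterpart drives transcription of STAT3, had 1.71, 1.92 and 2.27 RPKM in DM-aKG, against 1.33, 1.24 and 1.35 RPKM in controls (log2 fold change 0.44 ± 0.10; limma, adjusted p = 0.00742). Zfp710 had 5.31, 5.95 and 6.10 RPKM in DM-aKG, against 4.65, 4.31 and 4.25 RPKM in controls (log2 fold change 0.36 ± 0.07; limma, adjusted p = 0.00315). Zfp422 had 12.85, 9.19 and 11.50 RPKM in DM-aKG, against 20.48, 19.10 and 20.70 RPKM in controls (log2 fold change -0.83 ± 0.11; limma, adjusted p = 5.45e-04).

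**Figure D3:**
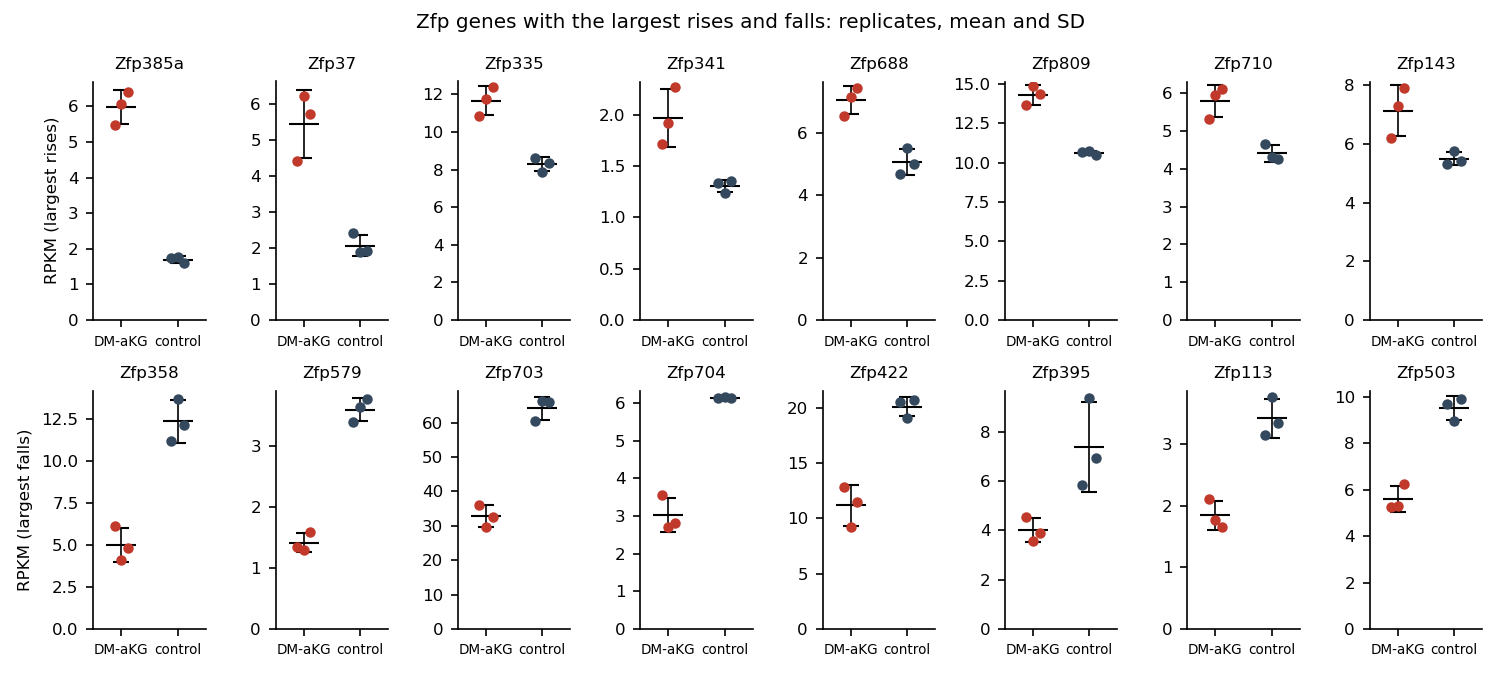
RPKM in each library (points), with the group mean and SD (bars), for the 8 Zfp genes with the largest rises (top row) and the 8 with the largest falls (bottom row), DM-aKG left of control in each panel. Groups that do not overlap were a condition for the choice of these 16, and Zfp385a and Zfp358 lie furthest apart on the log2 scale.

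The KRAB class held 138 of the 256 genes, with a median of 12 fingers and a median level of 2.72 RPKM. In it 70 genes (50.7%) were lower, 4 (2.9%) higher and 64 not past the threshold, with a median log2 fold change of -0.24. The 94 members with at least 3 fingers and no KRAB box had a median level of 5.51 RPKM, with 38 lower (40.4%), 10 higher (10.6%) and a median of -0.15. The KRAB count includes 10 genes whose DM-aKG mean was under 1 RPKM, which passed the level threshold through the controls, and 8 of them were called lower. Without them 62 of 128 KRAB genes (48.4%) were lower and 4 higher, with a median of -0.22, and the class without a KRAB box held no such gene. In 3 members, Zfp33b, Zfp783 and Zfp939, no coding sequence was available to classify, and 1 of them was lower. Because the classes differ in level, the members were also split by mean RPKM: the 86 lowest had a median of -0.24, the middle 85 of -0.22 and the 85 highest of -0.14. The 10 genes that passed through the controls all lie among the 86 lowest, and the split was not repeated without them. KRAB genes with other symbols, of which 20 of 46 were tested, all had a fold change below 0, and 12 were lower and 0 higher by limma, with a median of -0.31. At an unadjusted p under 0.05 these 20 gave 13 lower and 0 higher. Genes with other symbols that have at least 3 fingers and no KRAB box numbered 111 tested, with 29 higher (26.1%), 36 lower (32.4%) and a median of -0.01. The 7 Zfp genes with a SCAN domain, a stretch that pairs such proteins, included 6 lower genes and 0 higher by limma, also at an unadjusted p under 0.05, with a median of -0.39. No test was made of the differences between these classes. A KRAB box was called where the match to the common residues, as log2 odds, reached 25. A box that departs far from those residues may therefore count as none. Zfp746 (19.82), Zfp213 (0.26), Zfp37 (-3.65), Zfp180 (-10.86) and Zfp956 (-14.83) were counted so among the Zfp genes. Among other symbols Zkscan5 (20.32) and Zkscan1 (10.9) were. Zfp37 is one of the members that rose past 1.5-fold. The count of 4 higher KRAB genes, and which of them rose most, therefore hold for this threshold only.

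**Figure D4:**
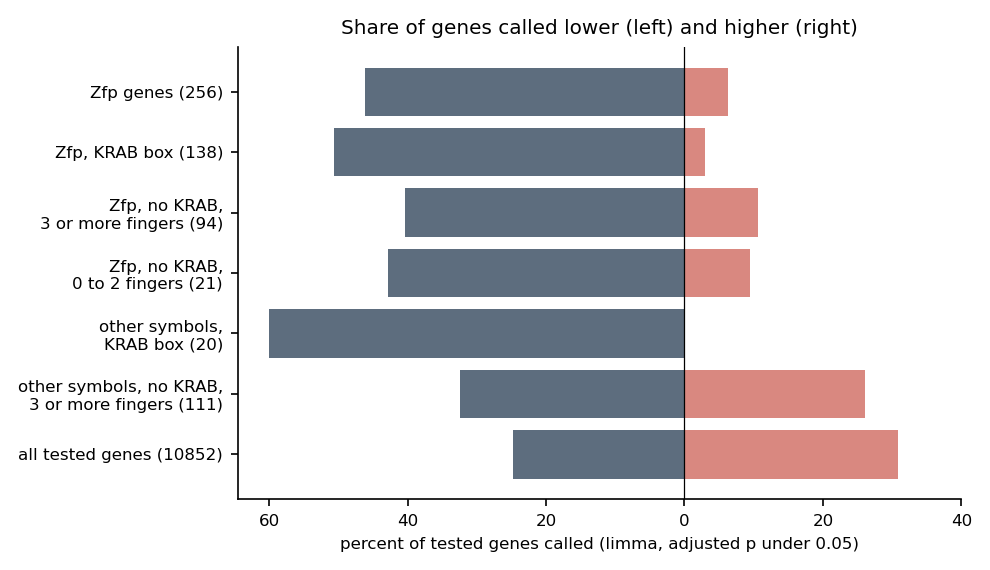
Percent of tested genes in each class that limma called lower (bars to the left) and higher (bars to the right) in DM-aKG at an adjusted p under 0.05, with the number tested in brackets. Lower calls made up 50.7% of the KRAB class of Zfp genes and 24.7% of all tested genes.

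Coding sequences of the KRAB box are shown for the 2 KRAB members with the largest rises and the 2 with the largest falls, 37 codons each, from the GENCODE annotation of GRCm38. Capitals mark codons that give the residue most common at that place among KRAB genes, and lower case the places where the gene departs from it.
Zfp688: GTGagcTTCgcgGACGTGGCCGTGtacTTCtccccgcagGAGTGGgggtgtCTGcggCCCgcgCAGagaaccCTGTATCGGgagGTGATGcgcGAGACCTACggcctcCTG
Zfp809: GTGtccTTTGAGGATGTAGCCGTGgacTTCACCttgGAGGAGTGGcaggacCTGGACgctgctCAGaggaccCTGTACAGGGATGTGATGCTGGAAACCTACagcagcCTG
Zfp113: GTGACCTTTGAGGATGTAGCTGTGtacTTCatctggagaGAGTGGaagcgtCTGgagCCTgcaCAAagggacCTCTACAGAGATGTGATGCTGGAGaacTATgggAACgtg
Zfp12: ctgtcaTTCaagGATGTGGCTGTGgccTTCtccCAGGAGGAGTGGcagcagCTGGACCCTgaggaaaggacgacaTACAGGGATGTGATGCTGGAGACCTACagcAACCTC
The common residue is encoded at 21 of 37 codons in Zfp688, 26 in Zfp809, 24 in Zfp113 and 24 in Zfp12, and over the 138 KRAB members the number lay between 15 and 33 with a median of 24. Base identity between these 4 lay between 65.8% (Zfp688 and Zfp12) and 78.4% (Zfp809 and Zfp12). Zfp809, which silences murine leukaemia virus through the primer binding site and recruits Trim28, was at 13.66, 14.90 and 14.38 RPKM in DM-aKG, against 10.67, 10.71 and 10.50 RPKM in controls (log2 fold change 0.41 ± 0.05; limma, adjusted p = 2.87e-04). Zfp688 had 6.56, 7.16 and 7.45 RPKM in DM-aKG, against 4.70, 5.53 and 4.99 RPKM in controls (log2 fold change 0.44 ± 0.07; limma, adjusted p = 0.00174). The other higher genes of the class were Zfp958, at a log2 fold change of 0.33, and Zfp251, at 0.22. Zfp113 had 2.10, 1.77 and 1.65 RPKM in DM-aKG, against 3.15, 3.76 and 3.34 RPKM in controls (log2 fold change -0.74 ± 0.10; limma, adjusted p = 5.55e-04). Zfp12 had 2.34, 2.10 and 2.04 RPKM in DM-aKG, against 3.93, 3.81 and 3.64 RPKM in controls (log2 fold change -0.69 ± 0.07; limma, adjusted p = 1.91e-04).

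Of 7 Zfp genes listed for silencing retroelements or imprints, 5 were tested, with 1 higher (20%), 2 lower (40%) and 2 not past the threshold. The shares over all tested genes were 30.9% higher and 24.7% lower. The riser is Zfp809. Zfp932, a repressor of endogenous retroviruses, had 6.78, 6.11 and 5.28 RPKM in DM-aKG, against 9.39, 9.09 and 9.32 RPKM in controls (log2 fold change -0.58 ± 0.08; limma, adjusted p = 8.08e-04). Zfp708, which silences a family of retroelements in mice, had 1.36, 1.30 and 1.03 RPKM in DM-aKG, against 1.81, 1.76 and 1.75 RPKM in controls (log2 fold change -0.40 ± 0.10; limma, adjusted p = 0.0102). Both are uncertain as single genes, since 37% of the 50-base stretches of Zfp932 and 94.9% of those of Zfp708 also occur in another gene. Zfp445, a guardian of imprints, was at 18.32, 18.12 and 17.80 RPKM in DM-aKG and 17.74, 17.89 and 17.66 RPKM in controls, with overlapping groups (log2 fold change 0.02; limma, adjusted p = 0.600). Zfp568, which represses a placental Igf2 transcript, did not pass either (log2 fold change -0.09; limma, adjusted p = 0.331).

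A list of 25 factors for KRAB silencing, which also holds subunits of deacetylase complexes and factors of DNA methylation, was tested in full. In DM-aKG 3 were higher (12%) and 11 lower (44%), while 11 did not pass, with a median log2 fold change of -0.08. Over all tested genes 30.9% were higher and 24.7% lower. Trim28 fell to 76.22, 63.74 and 66.08 RPKM in DM-aKG, against 97.74, 98.21 and 97.91 RPKM in controls (log2 fold change -0.51 ± 0.07; limma, adjusted p = 5.11e-04). Setdb1 was at 12.48, 12.11 and 12.10 RPKM in DM-aKG and 12.26, 11.76 and 12.35 RPKM in controls, and these overlap (log2 fold change 0.01 ± 0.04; limma, adjusted p = 0.822). The smallest p-values of the list were those of Rbbp7, a histone-binding subunit of deacetylase complexes, and Uhrf1, which guides maintenance methylation of DNA. Rbbp7 had 161.24, 176.17 and 165.40 RPKM in DM-aKG, against 245.72, 249.25 and 241.91 RPKM in controls (log2 fold change -0.55 ± 0.05; limma, adjusted p = 7.47e-05). Uhrf1 had 21.06, 20.48 and 20.88 RPKM in DM-aKG, against 27.36, 26.54 and 26.36 RPKM in controls (log2 fold change -0.36 ± 0.04; limma, adjusted p = 2.36e-04).

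Many Zfp genes lie in runs along the chromosomes. Among 135 members with at least one Zfp gene as a direct neighbour, 71 were lower (52.6%), 4 higher (2.96%) and 60 not called, with a median log2 fold change of -0.24. All tested genes gave 24.7% lower and 30.9% higher. Among 120 without such a neighbour, 47 were lower (39.2%) and 12 higher (10%), with a median of -0.15. Runs of at least 5 Zfp genes held 62 members, 33 lower (53.2%) and 0 higher by limma (36 and 0 at an unadjusted p under 0.05). Outside the longest run, Zfp566, Zfp607a and Zfp109, all lower, and Zfp93, not called, passed the level threshold through the controls only. These counts were not repeated without them. The runs differed: outside the longest, 21 of 48 members were lower, and in the run from Zfp677 to Zfp983 on chromosome 17 0 of 5 was by limma's adjusted p, with Zfp54 alone lower at an unadjusted p of 0.0295. The longest run, 20 Zfp genes at chr13:67194506-67827000, held 14 members, all of the KRAB class, and 12 of them were lower with no overlap between groups. The median of the 14 was -0.39. Zfp85 and Zfp273 are 2 of the 12 and passed the level threshold through the controls only; without them 10 of 12 were lower, with a median of -0.36. Zfp953 had the largest fall there, at 1.67, 1.48 and 1.35 RPKM in DM-aKG, against 2.55, 2.15 and 2.50 RPKM in controls (log2 fold change -0.54 ± 0.10; limma, adjusted p = 0.00231). Zfp429 and Zfp874a did not pass, with fold changes of -0.17 and 0.07, and the other 6 genes of the run were below the filter. All 14 were low, between 1.22 and 4.48 RPKM. They also resemble each other: from 0.7% to 46.6% of their 50-base stretches occur in another gene, so reads may have been split between neighbours. Zfp748, with 0.7% shared, had 3.14, 3.09 and 2.87 RPKM in DM-aKG, against 4.30, 3.79 and 4.42 RPKM in controls (log2 fold change -0.40 ± 0.07; limma, adjusted p = 0.00268). With a filter at 3 RPKM 5 of the 14 were tested and all 5 were lower, and with no filter 7 of the 14 were.

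**Figure D5:**
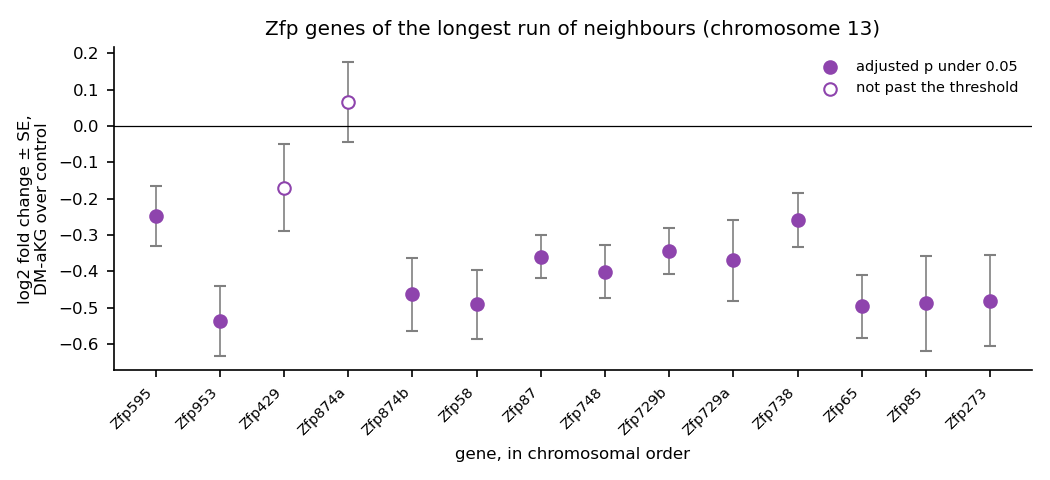
Log2 fold change, DM-aKG over control, with its SE for the 14 Zfp genes of the longest run, in order along chromosome 13. Filled points had an adjusted p under 0.05, and 12 of the 14 are filled, all below 0.

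Shared sequence was measured over all members. In 153 genes less than 1% of 50-base stretches occur elsewhere, and in 32 genes at least 20% do. Of these 32, 17 were lower and 0 higher by limma (19 and 0 at an unadjusted p under 0.05), with a median of -0.25. Among the 186 genes with under 5% shared, 83 were lower and 16 higher, with a median of -0.18. The labels do not say how reads with several matching genes were assigned.

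Genes for handling RNA and protein numbered 14, all tested, with 4 higher (28.6%), 2 lower (14.3%) and 8 not past the threshold. All tested genes gave 30.9% higher and 24.7% lower. The list includes the most abundant Zfp genes after Zfp703. Zfp598, a ubiquitin ligase that recognises collided ribosomes, had 27.04, 27.23 and 28.90 RPKM in DM-aKG, against 21.95, 22.09 and 22.08 RPKM in controls (log2 fold change 0.32 ± 0.04; limma, adjusted p = 5.11e-04). Zfp277, tied in mice to Polycomb repression of Cdkn2a, had 11.27, 10.02 and 9.66 RPKM in DM-aKG, against 14.54, 15.65 and 14.82 RPKM in controls (log2 fold change -0.52 ± 0.06; limma, adjusted p = 4.15e-04). After Zfp703, the highest mean levels were those of Zfp706, Zfp91, Zfp106 and Zfp207, and the differences between groups were small. Zfp706, linked to the exit of embryonic stem cells from self-renewal, was at 37.76, 39.57 and 37.60 RPKM in DM-aKG and 41.30, 39.53 and 40.80 RPKM in controls, with overlap (log2 fold change -0.08; limma, adjusted p = 0.124). Zfp207, a partner of the spindle checkpoint protein Bub3, was at 30.24, 28.20 and 29.29 RPKM in DM-aKG and 31.47, 29.88 and 31.38 RPKM in controls, again with overlap (log2 fold change -0.08; limma, adjusted p = 0.162). Zfp91, a ubiquitin ligase, was lower, at 37.82, 35.78 and 36.27 RPKM in DM-aKG, against 40.70, 39.57 and 39.83 RPKM in controls (log2 fold change -0.13 ± 0.04; limma, adjusted p = 0.0262). Zfp106, an RNA-binding protein, was higher, at 37.37, 35.99 and 37.02 RPKM in DM-aKG, against 33.83, 34.81 and 33.36 RPKM in controls (log2 fold change 0.11 ± 0.04; limma, adjusted p = 0.0386). All 4 depend on the scaling or on single libraries. Zfp706 and Zfp207 were called lower with median centring (adjusted p = 0.0329 and 0.0328) and with quantile normalization (0.0376 and 0.0282), and Zfp207 also with array weights (0.00961). For Zfp91 the adjusted p was 0.106 with an equal RPKM sum per library, and 0.0911, 0.0794, 0.0833 and 0.0769 without DM-aKG replicate 2, DM-aKG replicate 3, control replicate 1 and control replicate 3. For Zfp106 it was 0.176 with median centring, 0.212 with quantile normalization and 0.0618 without the mean-variance trend. Leaving out the same libraries in the same order gave Zfp106 adjusted p-values of 0.0574, 0.103, 0.0970 and 0.140.

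Where 30.9% of all tested genes were called higher and 24.7% lower, a list for chromatin gave no call. Of its 12 Zfp genes, 8 were tested and 0 passed limma's adjusted threshold, while 2 were lower at an unadjusted p under 0.05. Placement bears on this 0: Zfp277, called lower, and Zfp335, called higher, have ties to chromatin but stand in other lists. The count depends on the scaling: the 3 genes named next were called lower with median centring (adjusted p = 0.0256 for Zfp827, 0.0241 for Zfp644 and 0.0446 for Zfp687), with quantile normalization and with array weights. The smallest p-values were those of Zfp827, Zfp644 and Zfp687. Zfp827, which in human cells brings the NuRD complex to telomeres, was at 4.56, 4.24 and 4.31 RPKM in DM-aKG and 4.68, 5.16 and 4.79 RPKM in controls (log2 fold change -0.14 ± 0.06; limma, adjusted p = 0.0760). Zfp644, a partner of the histone methyltransferases G9a and GLP, was at 5.76, 5.01 and 5.31 RPKM in DM-aKG and 6.45, 5.92 and 5.77 RPKM in controls (log2 fold change -0.16; limma, adjusted p = 0.0773). Zfp687 overlapped between groups, at 10.73, 9.95 and 10.96 RPKM in DM-aKG and 11.57, 10.74 and 11.71 RPKM in controls (log2 fold change -0.10; limma, adjusted p = 0.161).

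The level threshold kept Zfp genes from 1.01 to 48.5 RPKM, with a median of 3.94, and 27 of the 256 reached 10 RPKM. Just inside it were Zfp563 and Zfp93 at a mean of 1.01 RPKM and Zfp965 at 1.06, and just outside Zfp775 at 0.987, Zfp970 at 0.978 and Zfp709 at 0.967 RPKM. In 10 members the mean of one group was under 1 RPKM, each time the DM-aKG mean, and 8 of these were called lower. Without those 10, chosen after the data were seen, 110 of 246 Zfp genes were lower, 16 higher and the median was -0.18. Of the 135 Zfp genes below the threshold, 14 were at 0 in every library and none exceeded 1.84 RPKM in any. Their DM-aKG libraries lay below all controls in 46 genes, above them in 7, and overlapped with them in 68 of the 121 above 0. The same share over all genes under the threshold was not taken, so these counts are not read as a trait of Zfp genes. Zfp966 and Zfp967 are both among the 46 and had identical values in every library.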

How the data were processed

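RNA-seq libraries of intestinal organoids, 3 treated with DM-aKG and 3 controls, were grouped by their titles. The authors deposited RPKM values for 24956 genes, with HISAT2 2.0.4, CASAVA 1.8, Partek and the mouse build mm10 named in the submitters' processing notes. The role of each tool, the annotation, the strand and the handling of reads with several matches are not given in the sources read. RPKM is relative to each library's total, so a change in abundant genes shifts the others.

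Values were analysed as log2(RPKM + 0.5), which understates the change of low genes. Genes with a mean of at least 1 RPKM (10852) went into limma 3.58.1 (R 4.3.3; mean-variance trend, two-sided, no replicate term), with Benjamini-Hochberg adjustment over all of them. Members and lists were chosen with earlier results of these data known. Named genes were the 8 largest rises and 8 largest falls among called members without overlap, the 5 highest means, up to 3 genes of each role list and of the KRAB cofactor list by p, Trim28, Setdb1, and the 3 genes on each side of the threshold. Others, among them Zfp12, Zfp217, Zfp445, Zfp568, Zfp748 and Zfp953, were picked after their values were seen.

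KRAB boxes (a position weight matrix of 37 residues, with a threshold of 25 in log2 odds) and C2H2 fingers were sought in the coding sequences of GENCODE M21, translated here. Gene positions, the order of neighbours and start regions come from RefSeq (GRCm38.p6), and mm10 names the same assembly. For depth, the RPKM steps of snoRNA and miRNA genes up to 150 bases long were used, and counting errors cover counting alone. Alternatives changed the pseudocount, filter, scaling, variance model and libraries. Biopython 1.88 and Python 3.11.15 were used.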

Additional observations from a re-analysis of the deposited data

How the results depend on the processing

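The count of lower Zfp genes, 118 as reported, lay between 93 and 141 when each library was left out in turn, that of higher genes (16) between 12 and 19, and the median log2 fold change between -0.22 and -0.18. Over all tested genes the same omissions called 19% to 29.4% lower and 24.8% to 33.9% higher. In the KRAB class 54 to 81 genes were lower and 2 to 4 higher, with 2 when control replicate 3 was left out. Of the 118 lower calls 84 were kept under every such omission, and of the 16 higher calls 12. A filter at a mean of 3 RPKM tested 156 Zfp genes and called 76 lower, 35 of them among 65 KRAB genes; fewer genes were tested. With no filter, 81 Zfp genes (31.6%) were lower and 13 (5.08%) higher, where 8.82% and 12.7% of all 24956 genes were. Median centring moved the median of the Zfp genes to -0.24 and that of all tested genes to -0.03 (every gene of a library moves by the same amount). An equal RPKM sum per library brought the ratio of summed levels to 0.891, against 0.867. Array weights called 157 lower and 25 higher, 89 and 7 of them KRAB genes, beside 32.8% and 38.2% of all tested genes, and the cause was not tested. With the replicate number as a block, 107 were lower, 105 of them among the 118, and 16 higher. No pairing by number was seen: same-numbered libraries correlated in their deviations at -0.083, -0.114 and 0.011, and the others at -0.033 to 0.1. Deviations within a group of 3 are bound to each other, so these values cannot settle whether the libraries were set up in pairs. For 34 named genes and 571 values under the alternatives, 529 kept direction and side of the threshold, 20 lost and 22 gained a call, and 0 reversed. Counts for the chromosome 13 run and for KRAB genes with other symbols were followed after the data were seen: at 3 RPKM, 5 of 5 and 5 of 8 genes left were lower. Depth limits the 53 members under 2 RPKM most.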

Other observations

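Other families named for zinc fingers were read from the same fit. Over all tested genes limma called 30.9% higher and 24.7% lower. Of 33 tested Zbtb genes, which join fingers to a BTB domain, 7 were higher (21.2%) and 10 lower (30.3%), with a median log2 fold change of -0.10. Of 8 Zkscan genes, 5 were lower (62.5%) and 0 higher by limma (6 and 0 at an unadjusted p under 0.05), with a median of -0.25. Of 7 Zscan genes 5 were lower (71.4%) and 1 higher (14.3%), with a median of -0.26. All 8 Zkscan genes had a fold change below 0.

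Of the Zfp genes below the level threshold, which were not tested, 46 had all DM-aKG libraries below all controls and 7 had them above. No share over all genes under the threshold was taken to set beside these counts. Zfp773 was at 0.12, 0.15 and 0.16 RPKM in DM-aKG, against 0.50, 0.63 and 0.56 RPKM in controls, and Zfp940 at 0.19, 0.17 and 0.18 RPKM in DM-aKG, against 0.48, 0.48 and 0.44 RPKM in controls. The next 3 are among the 7 that were higher. Zfp57, a KRAB protein that maintains imprints, was at 0.89, 0.48 and 0.72 RPKM in DM-aKG, against 0.19, 0.29 and 0.28 RPKM in controls. Zfp750, whose human counterpart drives terminal differentiation of the epidermis, was at 0.21, 0.29 and 0.41 RPKM in DM-aKG, against 0.01, 0.02 and 0.01 RPKM in controls. Zfp462 was at 0.19, 0.25 and 0.25 RPKM in DM-aKG, against 0.11, 0.11 and 0.09 RPKM in controls. All 5 were chosen after their values were seen.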
